A study of Mus musculus with 16 samples.

Results

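Tumours of B16F10 cells low in Pros1 (BdP) were compared with tumours of wild-type (WT) B16F10 cells, all from mice given cisplatin. The comparison was defined by genotype label and drug, and it took 8 of the 16 libraries of the series, 4 BdP and 4 WT. B16F10 is a mouse melanoma line. The labels name the BdP cells both as deficient in Pros1 and as a Pros1 knockdown, without saying how Pros1 was lowered or how many clones were used, and the WT cells are B16F10 labelled as wild type. Cells of either genotype were placed under the skin of C57BL/6J mice of both sexes aged 8 weeks, and the labels give no change to Pros1 in the hosts. From 8 days after implantation, when tumours could be felt, each mouse received 2 rounds of 3 daily injections into the abdomen, either cisplatin at 5 mg/kg or PBS. The other 8 libraries were BdP and WT tumours under PBS, 4 each. RNA came from whole end-stage tumours after disaggregation, so each value mixes melanoma and host cells. Less RNA per cell and fewer cells of a type cannot be told apart in such samples. The labels number the libraries 1 to 4 in each group but do not say that each came from its own animal, so p-values measure the spread between these samples.

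Pros1 encodes protein S, a vitamin K-dependent plasma protein that acts as a cofactor of activated protein C in shutting down clotting. Protein S and its relative Gas6 also bind phosphatidylserine on dying cells and bridge it to the TAM receptor tyrosine kinases Tyro3, Axl and Mertk, which drive uptake by phagocytes and restrain inflammatory signalling in macrophages and dendritic cells. Ptpn1 encodes PTP1B, a tyrosine phosphatase that removes phosphate from receptor and cytoplasmic kinases. Cisplatin forms crosslinks between purines in DNA, which engages nucleotide excision repair, crosslink repair and p53.

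Levels are given as deposited FPKM (reads per gene length, scaled between libraries), and differences as BdP minus WT on the log2(FPKM + 1) scale with a moderated standard error. That scale understates changes of genes near 0. Under cisplatin, 132 of 12319 genes tested differed between BdP and WT tumours (1.07%, limma, Benjamini-Hochberg adjusted p below 0.05), 43 higher (0.349%) and 89 lower (0.722%) in BdP tumours. Of these, 123 were protein-coding. The lower genes reached further from 0 than the higher ones. A difference of at least 1 log2 unit was seen for 42 of the genes that fell and for 13 of those that rose. In 131 of the 132 every BdP library lay on the same side of every WT library, against 13% of all genes tested, and the exception was Tnfrsf11b. Since the 132 were chosen by their difference between these libraries, such separation follows largely from the choice. Scaled as TPM over nuclear genes without haemoglobin, the same test called 31 genes, 4 higher and 27 lower. Leaving out any 1 of the 8 libraries left between 50 and 153 calls, and 46 of the 132 genes (9 higher, 37 lower) were called in all 8 of those runs. Every one of the 132 kept its direction in each alternative that tested it.

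The 8 libraries held between 12657417 (WT 4) and 27055771 (BdP 1) reads assigned to genes. Mitochondrial transcripts took 2.53% to 3.74% of reads in the BdP libraries, against 2.05% and 2.37% in WT 1 and 2, 12.2% in WT 3 and 21.7% in WT 4 (exact two-sided permutation p = 0.429). Without WT 3 and 4 and a library of the PBS groups with 76.9% mitochondrial reads, 55 genes were called, and 46 of the 132 were among them. Summed levels of 7 melanoma markers were 5403 to 6365 FPKM in BdP and 5690 to 5934 FPKM in WT tumours. Summed markers of skin keratinocytes were at most 0.144 FPKM in BdP and 0.0852 FPKM in WT tumours, and those of skeletal muscle at most 0.297 and 0.447 FPKM. Haemoglobin took 6.46% of reads in BdP 3.

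Pros1 itself was lower in every BdP tumour. The gene lies at chr16:62854307-62929346 on the plus strand (GRCm38). It measured 2.39, 2.21, 2.52 and 1.73 FPKM in BdP tumours under cisplatin, against 10.4, 11.5, 7.78 and 11.4 FPKM in WT tumours under cisplatin. No BdP value reached the lowest WT value, and the mean was 4.65-fold lower (-1.80 ± 0.17, adjusted p = 0.000103). Under PBS it was at 1.5 ± 0.179 FPKM in BdP and 6.47 ± 2.25 FPKM in WT tumours (SD, n = 4 each). The transcript was still detected in every BdP tumour. The TAM receptor genes and the other ligand gene, Gas6, were not called. Gas6 was at 1.99 ± 0.746 FPKM in BdP and 1.92 ± 0.776 FPKM in WT tumours (SD, n = 4 each), a difference of 0.04 ± 0.31. Axl was at 12.5, 2.75, 22.1 and 10.2 FPKM in BdP tumours, against 1.31, 3.37, 3.64 and 2.86 FPKM in WT tumours. BdP 2 fell inside the WT range, and the difference of 1.55 ± 0.67 did not pass (adjusted p = 0.33). Mertk, Tyro3 and Ptpn1 differed by 0.40 ± 0.26, 0.14 ± 0.19 and 0.23 ± 0.24, with overlapping groups and adjusted p of 0.514, 0.802 and 0.72. Of 11 genes tested around the protein S and TAM axis, 1 was called, against 1.07% of all genes tested. It was Pros1, the gene that the BdP label names as lowered. Of the 11, 10 had a positive difference (median 0.23, against 0.01 over all genes tested).

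Lamb1, Jph2 and Ndrg2 showed the sharpest losses. Lamb1, the laminin beta1 chain that forms part of the basement membrane network, had the smallest p of all genes tested. It measured 0.468, 0.906, 0.352 and 0.345 FPKM in BdP tumours, against 4.74, 5.21, 5.31 and 5.46 FPKM in WT tumours. All BdP values lay below 1 FPKM and all WT values near 5, so the mean was 10.0-fold lower (-2.04 ± 0.14, adjusted p = 1.94e-06). The next gene by p was Jph2, whose junctophilin product holds the plasma membrane close to the endoplasmic or sarcoplasmic reticulum. Its level was 2.02, 1.68, 1.69 and 1.70 FPKM in BdP tumours, against 7.81, 10.8, 8.80 and 7.46 FPKM in WT tumours. The groups were far apart, with a 4.92-fold lower mean (-1.80 ± 0.12, adjusted p = 1.94e-06). Ndrg2, of the N-Myc downstream-regulated family, was the third of equal adjusted p. It measured 1.25, 1.78, 1.56 and 1.20 FPKM in BdP tumours, against 8.29, 9.92, 6.59 and 10.5 FPKM in WT tumours, a 6.12-fold lower mean (-2.0 ± 0.14). These 3 genes and Pros1 had the 4 smallest p of the comparison and were called with any 1 library left out (adjusted p of at most 0.000892).

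The promoters of these 4 genes are shown because their transcripts separated the genotypes most sharply, with those of Padi2 and Ptgds for the other direction. Each window is the 250 bases before a RefSeq gene start on GRCm38.p6, read 5′ to 3′ on the strand of the gene. Capitals mark matches, on either strand, to any of 5 motifs searched: the E-box CACGTG, the M-box-like TCANGTG bound by Mitf-family factors, the AP-1 site TGANTCA, the GC box GGGCGG and the TATA box TATAAA.
Pros1: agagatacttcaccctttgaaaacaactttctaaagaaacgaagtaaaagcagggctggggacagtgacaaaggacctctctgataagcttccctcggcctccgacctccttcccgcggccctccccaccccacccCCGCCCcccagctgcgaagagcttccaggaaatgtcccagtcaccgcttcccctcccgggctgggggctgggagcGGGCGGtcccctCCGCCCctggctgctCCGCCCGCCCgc
Lamb1: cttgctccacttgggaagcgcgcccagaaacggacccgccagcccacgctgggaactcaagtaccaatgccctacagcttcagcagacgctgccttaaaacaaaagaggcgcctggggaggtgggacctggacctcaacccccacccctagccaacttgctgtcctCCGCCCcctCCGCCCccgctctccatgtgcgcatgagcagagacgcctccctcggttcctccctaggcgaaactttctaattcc
Jph2: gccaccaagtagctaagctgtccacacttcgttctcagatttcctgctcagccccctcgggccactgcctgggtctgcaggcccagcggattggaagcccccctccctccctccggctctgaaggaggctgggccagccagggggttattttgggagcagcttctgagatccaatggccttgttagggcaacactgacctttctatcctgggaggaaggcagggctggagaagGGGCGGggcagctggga
Ndrg2: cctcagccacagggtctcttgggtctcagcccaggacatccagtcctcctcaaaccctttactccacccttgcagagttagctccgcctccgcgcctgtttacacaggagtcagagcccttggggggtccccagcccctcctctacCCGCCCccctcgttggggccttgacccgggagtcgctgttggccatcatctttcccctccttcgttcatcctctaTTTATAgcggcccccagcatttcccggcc
Padi2: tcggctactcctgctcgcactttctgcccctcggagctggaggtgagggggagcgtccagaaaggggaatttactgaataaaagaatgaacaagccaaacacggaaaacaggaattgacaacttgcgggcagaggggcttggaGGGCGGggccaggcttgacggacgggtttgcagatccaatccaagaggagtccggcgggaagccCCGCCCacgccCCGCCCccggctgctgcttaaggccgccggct
Ptgds: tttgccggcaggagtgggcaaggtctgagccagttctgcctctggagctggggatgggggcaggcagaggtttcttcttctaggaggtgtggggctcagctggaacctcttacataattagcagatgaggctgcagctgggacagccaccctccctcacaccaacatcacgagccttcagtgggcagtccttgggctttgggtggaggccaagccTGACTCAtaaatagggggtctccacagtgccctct
They lie at chr16:62854057-62854306 (plus strand), chr12:31265043-31265292 (plus), chr2:163397994-163398243 (minus), chr14:51914005-51914254 (minus), chr4:140906110-140906359 (plus) and chr2:25469750-25469999 (minus). The RefSeq start lay 59 bases inside the gene as deposited for Lamb1, 154 for Ndrg2, 16 for Padi2 and 297 for Ptgds. The Pros1 window held 5 GC boxes, that of Lamb1 2, those of Jph2 and Ndrg2 1 each and that of Padi2 3. The Ptgds window held none and had an AP-1 site, and the Ndrg2 window had a TATA box. A window was held for 79 of the 123 called protein-coding genes, 20 higher and 59 lower, and for 8643 tested genes. At least 1 GC box was found in 55% of windows of the higher genes and 78% of those of the lower genes, against 61.1% of all. TCANGTG was found in 1 of 20 higher (5%) and 1 of 59 lower (1.69%), against 10.8% of all. CACGTG was found in 15% of higher and 5.08% of lower, against 8.69% of all. TGANTCA was found in 5% of higher and 0% of lower, against 3.96% of all, and TATAAA in 0% of higher and 10.2% of lower, against 6.11% of all. These shares are descriptions of letters in a short window, with no test.

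Other genes of the extracellular matrix were also called. Sparc, a secreted glycoprotein that binds collagen, measured 84.7, 63.6, 55.4 and 53.8 FPKM in BdP tumours, against 204, 167, 180 and 178 FPKM in WT tumours. The gap between the groups was wider than the range of either, and the mean was 2.83-fold lower (-1.51 ± 0.17, adjusted p = 0.000236). The lysyl oxidase gene Loxl2, whose product crosslinks collagen and elastin, measured 5.6, 5.03, 3.55 and 5.10 FPKM in BdP tumours, against 11.8, 12.2, 9.89 and 11.5 FPKM in WT tumours (-1.09 ± 0.14, adjusted p = 0.00117). For neither gene did the groups overlap, and both were called in all 8 runs without 1 library. Sparc and Loxl2 were the 2 of 13 fibroblast and collagen matrix genes called, against 1.07% called of all genes tested. The rest of that list moved little, with 5 of 13 higher and a median of -0.08. Col1a1, Col1a2, Dcn, Lum and Pdgfra, which define fibroblasts, summed to 2.52 to 5.80 FPKM in BdP and 1.52 to 8.50 FPKM in WT tumours. The cell source of Sparc was not tested.

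Of 12 basement membrane genes tested, 2 were called, Lamb1 and Lama4, both lower, against 0.722% called lower of all genes tested. Lama4, the laminin alpha4 chain, measured 5.48 to 6.54 FPKM in BdP and 9.12 to 10.2 FPKM in WT tumours (-0.60 ± 0.12, adjusted p = 0.0244). Its call was lost without WT 1, 3 or 4 or BdP 1, 3 or 4 (adjusted p up to 0.0991). The collagen IV chain genes Col4a2 and Col4a1 had positive differences that did not pass (0.98 ± 0.26, adjusted p = 0.0945, and 0.68 ± 0.29, adjusted p = 0.316), and the 2 genes overlap. The list was split evenly, 6 higher and 6 lower, with a median of -0.03.

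**Figure D1:**
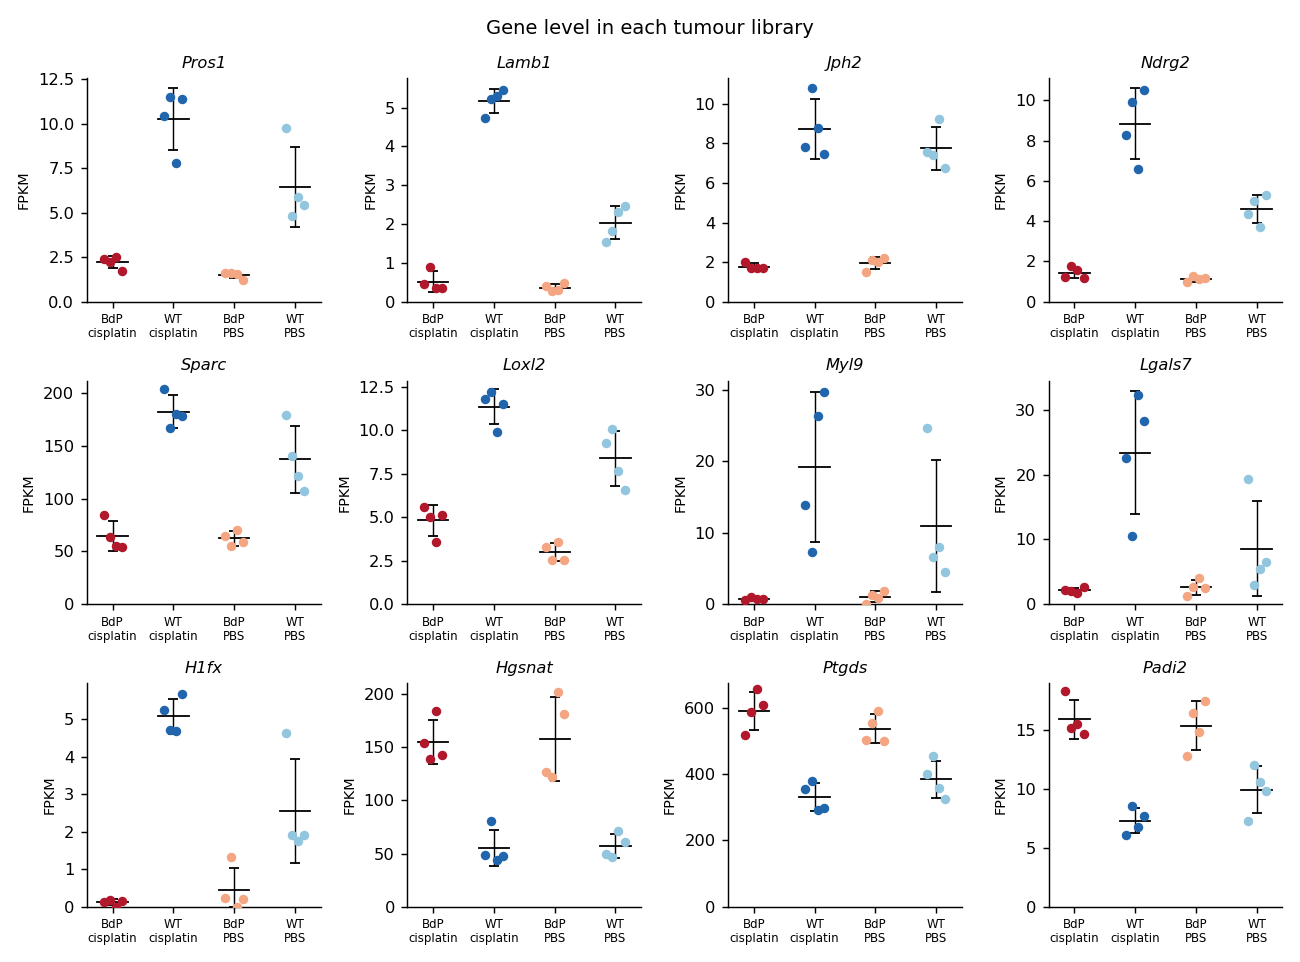
FPKM of 12 called genes in each tumour library (points), with the mean (horizontal line) and SD (bars) of 4 libraries per group, for BdP and WT tumours under cisplatin and under PBS. In all 12 panels the BdP cisplatin points lie wholly below or wholly above the WT cisplatin points, such as 0.345 to 0.906 against 4.74 to 5.46 FPKM for Lamb1.

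Myl9, a regulatory light chain of smooth muscle and non-muscle myosin, had the largest fall among the protein-coding genes called. It measured 0.593, 1.01, 0.732 and 0.707 FPKM in BdP tumours, against 13.8, 7.27, 26.4 and 29.7 FPKM in WT tumours. The BdP values were tightly grouped near the bottom of the scale, while the WT values varied widely, and the mean was 25.4-fold lower (-3.35 ± 0.46, adjusted p = 0.00175). Mcam, a cell adhesion molecule of melanoma and vessel walls, was at 6.17 to 23 FPKM in BdP and 26.8 to 44.3 FPKM in WT tumours (-1.46 ± 0.32, adjusted p = 0.0424). The Mcam call held without BdP 2 and was lost without any other of the 8 libraries (adjusted p up to 0.14). Myl9 and Mcam were the 2 called of 10 contractile and smooth muscle genes tested, 9 of which were lower (median -0.44). Of all genes tested, 0.722% were called lower. The defining pericyte and smooth muscle markers Acta2, Rgs5, Pdgfrb and Myh11 summed to 1.16 to 1.6 FPKM in BdP and 0.446 to 2.15 FPKM in WT tumours. The cell source of Myl9 was not tested.

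Fscn1, fascin, which bundles actin in filopodia, measured 3.96, 3.44, 8.37 and 3.49 FPKM in BdP tumours, against 20.3, 17.6, 21.6 and 19.4 FPKM in WT tumours. BdP 3 was well above the other BdP tumours and still below each WT tumour (-1.91 ± 0.37, adjusted p = 0.0244). Without WT 1, 3 or 4 or BdP 1, 2 or 4 the Fscn1 call was lost (adjusted p up to 0.0887). Mtss1, a scaffold that couples actin to curved membrane, went the other way. It measured 9.95, 8.47, 8.58 and 8.04 FPKM in BdP tumours, against 3.48, 5.27, 5.23 and 5.32 FPKM in WT tumours, a 1.81-fold higher mean (0.75 ± 0.13, adjusted p = 0.00975). Among 24 actin regulators tested these were the 2 called (1.07% over all genes), with 14 of 24 higher and a median of 0.07. Plxnd1, a semaphorin receptor, was at 29.6 to 38.8 FPKM in BdP and 56.3 to 62.6 FPKM in WT tumours (-0.77 ± 0.15, adjusted p = 0.0244). That call was lost without WT 1, 3 or 4 or BdP 2, 3 or 4 (adjusted p up to 0.0841). With Sema3f, described further on, Plxnd1 made 2 called of 17 semaphorin, plexin and neuropilin genes (1.07% over all genes). Sema3f was tested only through the WT cisplatin libraries, where it was high.

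Several further genes with roles in other processes fell. Lgals7, galectin-7, a beta-galactoside-binding lectin, measured 2.13, 2.11, 1.78 and 2.61 FPKM in BdP tumours, against 22.6, 10.5, 32.3 and 28.3 FPKM in WT tumours. Its mean was 10.9-fold lower (-2.85 ± 0.42, adjusted p = 0.00306). Krt5 and Krt14, which define the basal keratinocytes of skin, a known source of galectin-7, were at 0 in all 8 libraries. Which cells the Lgals7 reads came from was not tested. Hspb1, a small heat shock protein that keeps unfolding proteins soluble, measured 0.942, 0.589, 3.11 and 1.33 FPKM in BdP tumours, against 9.54, 4.47, 36.5 and 29.3 FPKM in WT tumours. WT 3 and 4 were far above WT 1 and 2, and the call (-2.78 ± 0.56, adjusted p = 0.0267) was lost without WT 1, 3 or 4 or BdP 1, 2 or 4 (adjusted p up to 0.106). Hspb1 was the 1 called of 14 heat shock genes (1.07% over all genes), and 3 of the 14 were higher (median -0.09).

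H1fx, a replication-independent linker histone, measured 0.129, 0.178, 0 and 0.150 FPKM in BdP tumours, which is at most 5 reads in a library, against 5.24, 4.70, 4.68 and 5.67 FPKM in WT tumours. WT libraries held 81 to 177 reads of it (-2.45 ± 0.25, adjusted p = 0.000185). The long non-coding RNA gene Gm49497 and Nr5a1, the gene of steroidogenic factor 1, had 0 reads in all 4 BdP libraries. In WT tumours they had 82 to 192 and 119 to 284 reads. Both were named after their values were seen, and Nr5a1 was called in 1 of the 8 runs without 1 library (without WT 2; otherwise adjusted p up to 0.0731).

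Ndufa4l2, a mitochondrial protein known as a target of hypoxia-inducible factor, was at 0.292 to 1.75 FPKM in BdP and 5.81 to 11.2 FPKM in WT tumours (-2.37 ± 0.28, adjusted p = 0.000384). It overlaps Shmt2 on the opposite strand, which fell less (-0.48 ± 0.11, adjusted p = 0.0458), and strand use in the counting was not given in the sources used here, so reads of the pair may be mixed. Ddah2, of the family that degrades methylated arginine inhibitors of nitric oxide synthase, was at 2.99 to 3.67 FPKM in BdP and 12 to 17.6 FPKM in WT tumours (-1.75 ± 0.19, adjusted p = 0.000199). Hoxd13, a homeobox factor of distal limb patterning, was at 0.454 to 1.43 FPKM in BdP and 5.06 to 6.86 FPKM in WT tumours (-1.77 ± 0.29, adjusted p = 0.00693). Hoxd13 was the 1 called of 10 Hox genes tested (1.07% over all genes). Of the other 9, 8 were lower, with Hoxb9 at -0.91 ± 0.28 (adjusted p = 0.164), and the list median was -0.32.

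Genes that rose had varied roles. Hgsnat, the lysosomal acetyltransferase that acts on heparan sulfate during its breakdown, showed the largest rise among called genes annotated as protein-coding, apart from Pcna-ps2. It measured 154, 139, 185 and 143 FPKM in BdP tumours, against 48.8, 81.1, 44.2 and 47.6 FPKM in WT tumours. WT 2 stood above the other WT tumours but well below any BdP tumour, and the mean was 2.80-fold higher (1.5 ± 0.21, adjusted p = 0.00181). It was the 1 called of 17 lysosomal glycan breakdown genes (1.07% over all genes), and 14 of the 17 were higher (median 0.09). Chsy1 (0.96 ± 0.21, adjusted p = 0.044), Galnt6 (0.88 ± 0.19, 0.0368) and St6gal1 (0.79 ± 0.16, 0.0265), which extend chondroitin chains, start mucin-type O-glycans and add terminal sialic acid, each rose in BdP tumours. St6gal1, for example, was at 34.2 to 40.8 FPKM in BdP and 19.0 to 25.3 FPKM in WT tumours. Other glycosyltransferase genes, named after their values were seen, were called lower: B4galt2 (-1.08), Gbgt1 (-1.02), B4galt7 (-0.49) and Mgat4b (-0.44), with adjusted p of 0.0244, 0.0368, 0.0456 and 0.044. Galnt6 overlaps its antisense gene Galnt6os. Calls in both directions were insecure. That of Galnt6 was lost without any 1 library (adjusted p up to 0.123) and that of Chsy1 without any but WT 2 (up to 0.136). That of St6gal1 was lost without any but WT 2 or BdP 3 (up to 0.105). Of the lower genes, B4galt7 and Mgat4b lost their call without any 1 library (up to 0.157 and 0.156). The Gbgt1 call was lost without any but WT 2 (up to 0.135), and that of B4galt2 without any but WT 2 or BdP 1 (up to 0.0948).

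Ptgds, prostaglandin D synthase, was the most abundant of the named genes that rose. It measured 518, 587, 657 and 608 FPKM in BdP tumours, against 355, 380, 292 and 298 FPKM in WT tumours (0.84 ± 0.14, adjusted p = 0.00679). Padi2, a deiminase that turns arginine in proteins into citrulline, measured 18.3, 15.1, 15.5 and 14.7 FPKM in BdP tumours, against 6.07, 8.52, 6.79 and 7.68 FPKM in WT tumours (1.04 ± 0.14, adjusted p = 0.00174). Both genes separated the groups and were called with any 1 library left out, and Padi2 overlaps Gm26226. Smpdl3b, a membrane-anchored phosphodiesterase of the acid sphingomyelinase family, behaved alike, at 6.24 to 7.34 FPKM in BdP and 2.00 to 4.22 FPKM in WT tumours (0.95 ± 0.16, adjusted p = 0.0109).

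Of the other genes named for a large rise, Tnfrsf11b, osteoprotegerin, a decoy receptor for the cytokine RANKL, measured 30.6, 25.7, 15.8 and 25.1 FPKM in BdP tumours, against 8.82, 16.7, 5.17 and 8.40 FPKM in WT tumours. BdP 3 fell below WT 2 (1.3 ± 0.29, adjusted p = 0.0462). Gsta4, a glutathione transferase that clears lipid aldehydes, was at 72.4 to 165 FPKM in BdP and 38.9 to 56.7 FPKM in WT tumours (1.04 ± 0.24, adjusted p = 0.0495). Zdhhc2, a palmitoyltransferase, was at 7.54 to 7.80 FPKM in BdP and 2.69 to 4.16 FPKM in WT tumours (1.07 ± 0.20, adjusted p = 0.0197). Hip1r, which links clathrin coats to actin, rose by 0.92 ± 0.19 (adjusted p = 0.0358). Zdhhc2 and Hip1r each overlap another expressed gene. The Tnfrsf11b call held without WT 2 or BdP 3 and was lost without any other library (adjusted p up to 0.147). The Gsta4 call held without BdP 2 alone (up to 0.159), the Zdhhc2 call without WT 2 alone (up to 0.0788) and the Hip1r call without WT 3 or BdP 3 alone (up to 0.127).

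Nuclear genes of the respiratory chain had small positive differences in all 26 members tested (median 0.19, against 0.01 over all genes). Sdhc, a membrane anchor of complex II, was the 1 called, against 1.07% called of all genes tested. It was at 67.8 to 69.6 FPKM in BdP and 42.0 to 52.5 FPKM in WT tumours (0.53 ± 0.11, adjusted p = 0.0423). The Sdhc call held without WT 2 alone (adjusted p up to 0.146). Atp5a1, an ATP synthase subunit, was at 0.58 ± 0.19 and did not pass (adjusted p = 0.185). Mean log2(FPKM + 1) of the 26 genes was 6.58 to 6.67 in BdP tumours, against 6.48 and 6.54 in WT 1 and 2 and 6.29 and 6.25 in WT 3 and 4, the libraries rich in mitochondrial transcripts. All 13 mitochondrially encoded genes were lower in BdP tumours on average (median -1.11), with 0 called in limma or limma-voom and 0 at an unadjusted p below 0.05, and the median reached 0.60 without those libraries. Under PBS 4 of the 26 nuclear genes were higher in BdP tumours (median -0.17).

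The same genotype comparison under PBS took its differences from 8 other libraries and called 122 genes (0.99%), 51 higher and 71 lower in BdP tumours. Both tests share each gene's estimate of spread, taken over all 16 libraries, so calls in both are not an independent repeat. Of the genes called under cisplatin, 39 were called there too, which is 29.55% of the cisplatin calls and 31.97% of the PBS calls, and all 39 had the same direction (13 higher, 26 lower). Of the 132, 120 had the same sign under PBS (90.91%, against 65.48% of all genes tested) and 75 also separated the groups the same way, against 3.36% of all genes tested that were apart and higher under PBS and 4.32% apart and lower. The genes that rose under cisplatin had a median difference of 0.79 under cisplatin and 0.50 under PBS. Those that fell had medians of -0.98 and -0.54. Since these genes were chosen by their difference under cisplatin, a smaller value in other libraries follows in part from the choice.

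**Figure D2:**
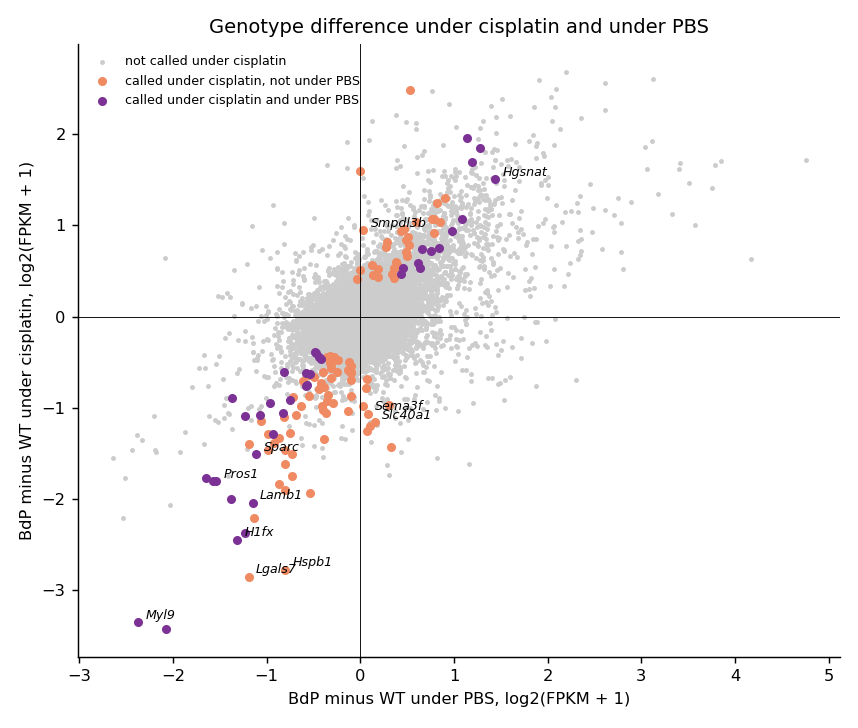
BdP minus WT difference in log2(FPKM + 1) of each gene tested under PBS (x axis) and under cisplatin (y axis), coloured by whether the gene was called under cisplatin alone (93 genes) or under both (39 genes). Most called genes lie in the lower left or upper right quadrant, and Sema3f and Slc40a1 lie below 0 on the y axis and just above 0 on the x axis.

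Pros1, Lamb1, Jph2, Ndrg2, Sparc, Loxl2, Myl9, H1fx, Ndufa4l2 and Hoxd13 were called lower under both treatments. Among the named higher genes, Hgsnat and Mtss1 were called higher under both. Lamb1 was at 0.268 to 0.484 FPKM in BdP and 1.55 to 2.46 FPKM in WT tumours under PBS (-1.15 ± 0.14, adjusted p = 0.000985), so the gap in log2 units was smaller there than the -2.04 under cisplatin. The test of that difference gave -0.89 ± 0.20 and did not pass (adjusted p = 0.486). Smpdl3b was at 4.16 to 5.79 FPKM in BdP and 4.08 to 6.65 FPKM in WT tumours under PBS, a difference of 0.03 ± 0.16, against 0.95 under cisplatin (difference between the treatments 0.91 ± 0.23, adjusted p = 0.835). Lgals7, Hspb1 and Fscn1 overlapped between genotypes under PBS and were not called there (adjusted p = 0.163, 0.426 and 0.259).

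No gene passed the test of a genotype difference that depends on treatment. In limma 0 genes were called (0%) and 691 had an unadjusted p below 0.05, while limma-voom called 1. The smallest adjusted p was 0.0795, for Igha, the constant region of IgA heavy chains. Igha was at 0.0587, 0.764, 0.0354 and 1.32 FPKM in BdP tumours, against 0.797, 0.750, 1.19 and 1.31 FPKM in WT tumours under cisplatin. Under PBS it was at 2.04 to 2.87 FPKM in BdP and 0 to 0.0686 FPKM in WT tumours, so the groups were apart under PBS and overlapped under cisplatin. Slc40a1, ferroportin, the exporter of cellular iron, was next. It measured 0.359, 0.434, 0.666 and 0.543 FPKM in BdP tumours, against 3.27, 2.00, 2.08 and 2.15 FPKM in WT tumours under cisplatin (-1.16 ± 0.16, adjusted p = 0.00208). Under PBS it was at 1.05 to 1.37 FPKM in BdP and 0.585 to 1.48 FPKM in WT tumours, with overlapping groups (0.15 ± 0.16). The difference between the treatments was -1.31 ± 0.23 (adjusted p = 0.31).

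Sema3f, a secreted semaphorin that signals through neuropilin-2 and repels growing axons and vessels, followed a similar course. The rule that 4 or more of the 16 libraries reach 1 FPKM favours such a pattern here. Sema3f reached that level in the 4 WT cisplatin libraries alone and was tested only through them. It measured 0.380, 0.184, 0.136 and 0.281 FPKM in BdP tumours, against 1.69, 1.48, 1.46 and 1.79 FPKM in WT tumours under cisplatin (-1.07 ± 0.17, adjusted p = 0.00465). Under PBS it was at 0.274 to 0.870 FPKM in BdP and 0.153 to 0.605 FPKM in WT tumours (0.08 ± 0.17, difference between the treatments -1.15 ± 0.23, adjusted p = 0.486). Slc40a1, Sema3f and the chromosome 18 gene Tpgs2 were among 11 called genes whose sign under PBS was opposite, and 1 further called gene, Trbj1-2, had 0 reads in all PBS libraries. Gm16199 and 4930579G24Rik, the other 2 genes with the smallest p in this test, had adjusted p of 0.395 each and both overlap another expressed gene.

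Most lists of immune cell and interferon response genes had positive differences in all or nearly all members, without a gene that passed the test. All 21 T cell genes (median 1.5), all 12 cytotoxic effector genes (1.94), all 13 NK cell genes (0.93) and all 11 MHC class II genes (1.86) were higher on average in BdP tumours, as were all 21 interferon gamma response genes (1.14), all 23 type I interferon genes (0.78) and all 15 immune checkpoint genes (0.77). Over all genes tested 6292 of 12319 were higher, with a median of 0.01. Macrophage genes were higher in 18 of 19 (0.73), B and plasma cell genes in 19 of 20 (1.08) and MHC class I presentation genes in 19 of 20 (1.02). In limma and in limma-voom 0 genes of these 10 lists were called. Other lists were more mixed, with 14 of 19 chemokine genes (median 0.61), 10 of 11 alternative macrophage activation genes (0.55) and 5 of 9 inflammatory macrophage activation genes (0.16) higher, and 0 called by either tool. At an unadjusted p below 0.05 stood 8 of 21 T cell, 5 of 12 cytotoxic, 7 of 13 NK, 6 of 11 MHC class II, 8 of 21 interferon gamma, 6 of 23 type I interferon, 3 of 15 checkpoint and 4 of 20 MHC class I genes, and 0 of the macrophage and B and plasma cell genes, against 1704 of 12319 over all. Members of a list move together within a library, so these counts are not independent.

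The T cell receptor joining segments Trbj2-1 and Trbj1-2, on no list and named after their values were seen, were called higher. Trbj2-1 was at 3.13, 10.4, 12.3 and 1.83 FPKM in BdP tumours, against 0, 0.816, 0 and 0 FPKM in WT tumours (adjusted p = 0.0333). Each call rests on 13 reads or fewer in a library. Leaving out 1 library ended it in 6 of 8 runs for Trbj2-1 and 4 of 8 for Trbj1-2. Trbj1-2 reached 1 FPKM in the 4 BdP cisplatin libraries and WT cisplatin 4 alone. It was therefore tested through the group where it was high.

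The spread between tumours of a genotype was large for these genes. Prf1, the pore-forming protein of killer cells, measured 9.60, 2.27, 27.3 and 5.41 FPKM in BdP tumours, against 0.321, 1.63, 2.20 and 0.527 FPKM in WT tumours (2.13 ± 0.86, adjusted p = 0.297). The groups did not overlap, but BdP 2 lay just above WT 3. H2-Ab1, an MHC class II chain, measured 64.3, 345, 256 and 148 FPKM in BdP tumours, against 6.98, 20.8, 125 and 28.6 FPKM in WT tumours (2.60 ± 1.12, adjusted p = 0.326). WT 3 lay above BdP 1. Nlrc5, the transactivator of MHC class I genes, measured 3.79, 3.92, 6.18 and 6.10 FPKM in BdP tumours, against 0.764, 1.62, 2.81 and 1.78 FPKM in WT tumours (1.15 ± 0.44, adjusted p = 0.271). Ddx58, the RNA sensor RIG-I, measured 5.30, 5.72, 6.96 and 5.63 FPKM in BdP tumours, against 1.82, 2.42, 2.98 and 2.57 FPKM in WT tumours (1.01 ± 0.32, adjusted p = 0.173). For both of these the genotypes were apart. Groups did not overlap for 9 of 13 NK cell, 9 of 20 MHC class I, 9 of 23 type I interferon, 6 of 21 interferon gamma, 4 of 12 cytotoxic and 1 of 21 T cell genes, all higher in BdP tumours, against 6.41% of all genes tested that were apart and higher and 6.6% apart and lower. For MHC class II, macrophage and B and plasma cell genes none was apart.

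BdP 3 had the highest mean level of the cytotoxic, NK, T cell, interferon and macrophage genes. For MHC class II and B cell genes BdP 2 was highest, with B and plasma cell markers summing to 8.92, 850, 66.7 and 194 FPKM in BdP tumours, against 8.47, 9.79, 233 and 43.8 FPKM in WT tumours. T cell markers summed to 7.4, 60.9, 77.0 and 25.5 FPKM in BdP tumours, against 0.895, 2.85, 34.3 and 4.68 FPKM in WT tumours, where WT 3 exceeded BdP 1 and 4. Macrophage markers summed to 141, 31.8, 300 and 150 FPKM in BdP tumours, against 31.0, 70.5, 140 and 112 FPKM in WT tumours. BdP 2 was thus among the lowest for macrophages and among the highest for B cells. Under PBS the medians of the T cell, cytotoxic, NK and MHC class II lists were 1.05, 0.94, 0.58 and 1.92, with 0 called and all members higher. The medians under PBS were 0.30 for interferon gamma genes (20 of 21 higher), 0.43 for type I interferon genes (19 of 23), 0.47 for MHC class I genes (17 of 20), 0.60 for macrophage genes (19 of 19) and 0.69 for checkpoint genes (15 of 15), with 0 called. That of B and plasma cell genes was 2.35 (20 of 20), with Igha called. The differences between treatments in these medians were not tested.

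Neutrophil genes had 6 of 7 members lower in BdP tumours (median -0.32, a value that turned positive in at least 1 alternative, up to 0.12). S100a9, a calcium-binding protein abundant in neutrophils, measured 6.78, 11.7, 17.3 and 15.1 FPKM in BdP tumours, against 22.6, 27.2, 26.1 and 66.7 FPKM in WT tumours (-1.35 ± 0.45, adjusted p = 0.202). The groups were apart, but the difference did not pass the test. Of dendritic cell genes 6 of 7 were higher and 1 was called, Fscn1, which was lower (0.722% called lower over all genes tested). Fscn1 was also counted among the actin regulators. The defining dendritic markers Zbtb46, Flt3 and Xcr1 stayed below 1 FPKM and were not tested. Flt3 was at 0.169 to 0.963 FPKM in BdP and 0 to 0.138 FPKM in WT tumours. Xcr1 was at 0.174 to 0.901 FPKM in BdP and 0.00809 to 0.0765 FPKM in WT tumours, while Zbtb46 overlapped between the groups.

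**Figure D3:**
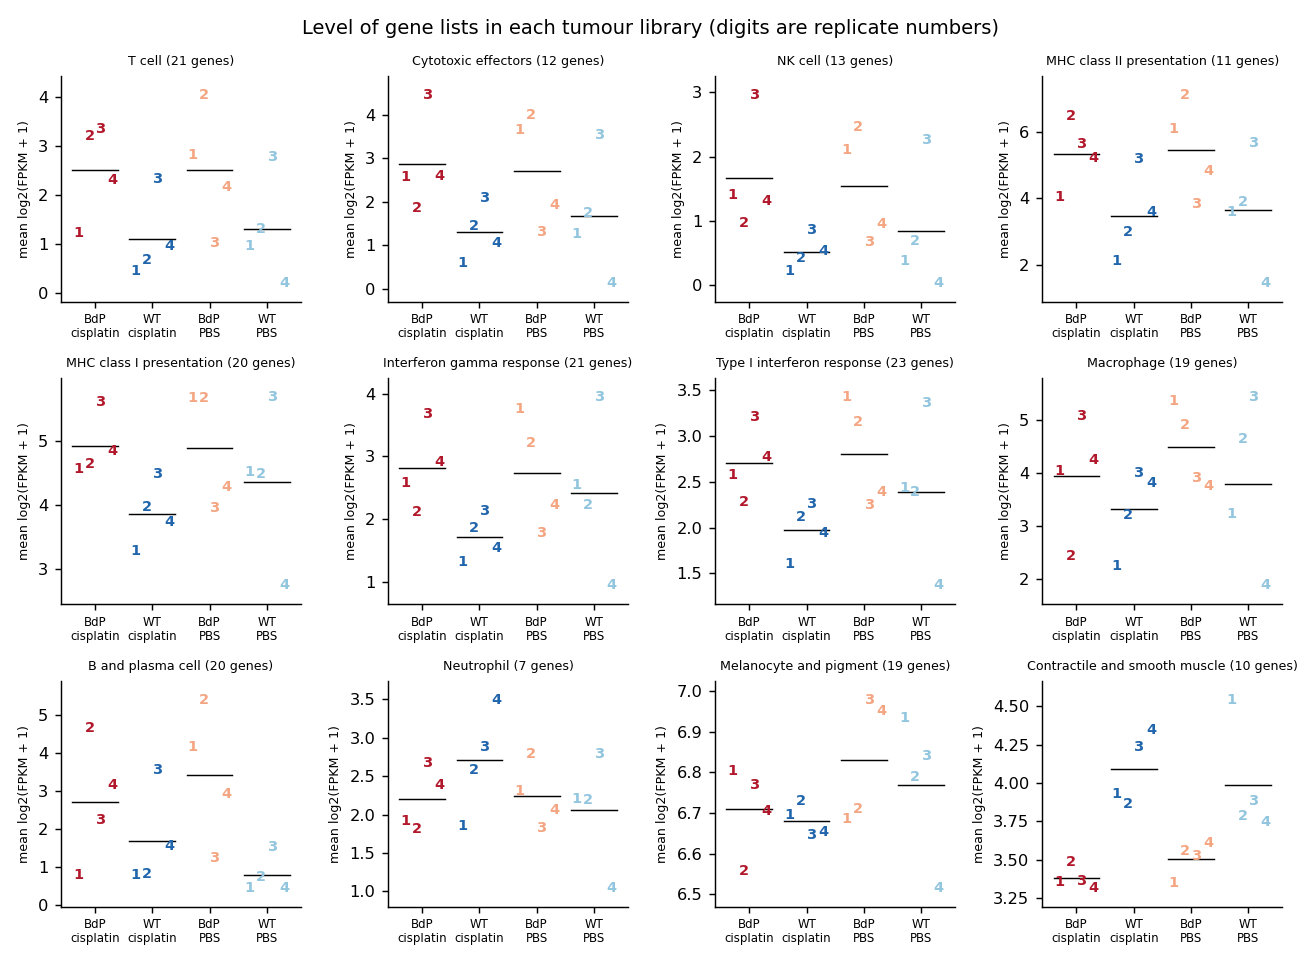
Mean log2(FPKM + 1) of 12 gene lists in each tumour library, where digits are replicate numbers and lines are group means, for BdP and WT tumours under cisplatin and under PBS. The T cell values run from 1.23 to 3.35 in BdP and from 0.45 to 2.33 in WT tumours under cisplatin, so the groups overlap, while the contractile values do not (3.32 to 3.48 against 3.86 to 4.34).

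Genes that respond to platinum damage and genes of proliferation showed little difference between genotypes. No p53 target was called, with 13 of 28 higher (median -0.08) and 3 of 28 at an unadjusted p below 0.05. Mdm2, the p53 ubiquitin ligase, was at -0.44 ± 0.19 (adjusted p = 0.323). Crosslink and excision repair genes were higher in 9 of 30 (median -0.05), platinum transport and detoxification genes in 12 of 23 (median 0.00), mitotic genes in 9 of 26 (median -0.07) and DNA replication genes in 14 of 26 (median 0.03), with 0 called in limma or limma-voom. At an unadjusted p below 0.05 stood 0, 3, 2 and 4 genes of these lists. The pigment and melanocyte list had 10 of 19 higher and a median of 0.06. Its members with the smallest p went in opposite directions. Kit, the receptor of stem cell factor, was at 2.75 to 3.89 FPKM in BdP and 0.714 to 1.25 FPKM in WT tumours (1.00 ± 0.25, adjusted p = 0.0663, called in limma-voom). Mitf, the lineage factor of melanocytes, was at 40.8 to 58.9 FPKM in BdP and 62.7 to 83.2 FPKM in WT tumours (-0.60 ± 0.17, adjusted p = 0.128), while under PBS its difference was 0.42 ± 0.17 (adjusted p = 0.209). Myc was at 19.9 to 29.8 FPKM in BdP and 31.7 to 50.8 FPKM in WT tumours (-0.84 ± 0.20, adjusted p = 0.0584, called in limma-voom).

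The called genes were unevenly placed along the genome. Chromosome 3 held 18 of the 89 genes that fell and 0 that rose, among 596 tested there (3.02% called lower, against 0.722% of all). The median difference over all 596 was -0.19, and 24.16% were higher in BdP tumours, against 51.08% over the genome. Named by smallest p, Gnb4, a G protein beta subunit, measured 1.81, 1.97, 1.74 and 1.85 FPKM in BdP tumours, against 4.01, 4.04, 3.71 and 3.48 FPKM in WT tumours (-0.76 ± 0.10, adjusted p = 0.00107). Wwtr1, the Hippo pathway coactivator TAZ, measured 14.2, 11.0, 13.3 and 13.6 FPKM in BdP tumours, against 21.8, 22.3, 25.6 and 23.4 FPKM in WT tumours (-0.80 ± 0.11, adjusted p = 0.00241). Lhfp, Lix1l and Elf2, an ETS-family transcription factor, fell by 1.08, 0.62 and 0.61 on the log2 scale. All 5 kept their call with any 1 library left out. The shift ran along the whole chromosome in gene order, with medians of -0.21, -0.20 and -0.18 in its proximal, middle and distal parts.

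Chromosome 18 showed the opposite, with 6 genes that rose and 0 that fell among 305 tested (1.97% called higher, against 0.349% of all). The median was 0.25, and 85.57% of its genes were higher in BdP tumours. Mbd2, which binds methylated CpG, was at 27.1 to 34.2 FPKM in BdP and 15.1 to 17.8 FPKM in WT tumours (0.77 ± 0.16, adjusted p = 0.0379). Afg3l2, a protease of the inner mitochondrial membrane, was at 35.6 to 43.2 FPKM in BdP and 22.1 to 30.1 FPKM in WT tumours (0.60 ± 0.13, adjusted p = 0.0368). Each pair of groups was apart, yet single calls here were fragile. That of Mbd2 was lost without any 1 library (adjusted p up to 0.134) and that of Afg3l2 without any but WT 2 (up to 0.135). Pcdhgb1, a clustered protocadherin, kept its call (1.24 ± 0.21, adjusted p = 0.0103) but shares its span with Pcdhgb2, so their reads may be mixed.

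On chromosome 8 all 6 genes that rose, Hgsnat and Zdhhc2 among them, lay in the proximal part of the gene order (225 genes, median 0.23). Medians were 0.08 in the middle part and 0.00 in the distal part. The middle part held both the highest run of 51 genes (median 0.30) and the lowest (-0.13). Over the chromosome 1.48% of genes were called, against 1.07% of all genes tested. Genes that fell on chromosome 8 included Exoc3l, of the exocyst-related family, and Camsap3, which binds microtubule minus ends. Camsap3 was at 0.362 to 0.568 FPKM in BdP and 2.71 to 6.51 FPKM in WT tumours (-1.93 ± 0.21, adjusted p = 0.000236), but overlaps Xab2. Exoc3l fell by 1.04 on the log2 scale (adjusted p = 0.0131), a call lost without BdP 1 or WT 1, 3 or 4 (adjusted p up to 0.0641). Exoc3l reached 1 FPKM in the WT cisplatin libraries alone and was tested only through them. Chromosome 17, with 0.818% of 611 genes called lower against 0.722% of all tested, had 0 that rose and 5 that fell (median -0.17). Besides Ddah2 these included Jpt2 (-0.61 ± 0.09, adjusted p = 0.00369), Yipf4 (-0.57 ± 0.09, adjusted p = 0.00693) and Flywch2 (-1.34 ± 0.24, adjusted p = 0.0142). The Flywch2 call was lost without BdP 3 or 4 or WT 1 (adjusted p up to 0.0537).

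The chromosome medians had the same signs in the PBS libraries and were nearer 0 there on chromosomes 3, 17 and 18. PBS libraries do not enter the cisplatin differences themselves, only the filter and the estimate of spread. Medians under PBS were -0.13 for chromosome 3, 0.20 for chromosome 18, -0.09 for chromosome 17 and 0.10 for chromosome 8, where it was also 0.10 under cisplatin. They were present in every tumour. Each gene was centred on its mean over libraries, and the median over chromosome 18 was 0.09 to 0.13 in the BdP cisplatin libraries and -0.18 to -0.13 in the WT cisplatin libraries. For chromosome 3 it was -0.11 to -0.09 in BdP and 0.08 to 0.14 in WT tumours. Relative to the median of all genes, the cisplatin difference over all alternatives ran from -0.24 to -0.18 for chromosome 3, from 0.23 to 0.31 for chromosome 18, from -0.21 to -0.16 for chromosome 17 and from 0.08 to 0.13 for chromosome 8. On chromosome 1 a run of 51 tested genes between positions 170907273 and 173942491, which includes Sdhc, had a median of 0.41 under cisplatin and 0.38 under PBS.

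**Figure D4:**
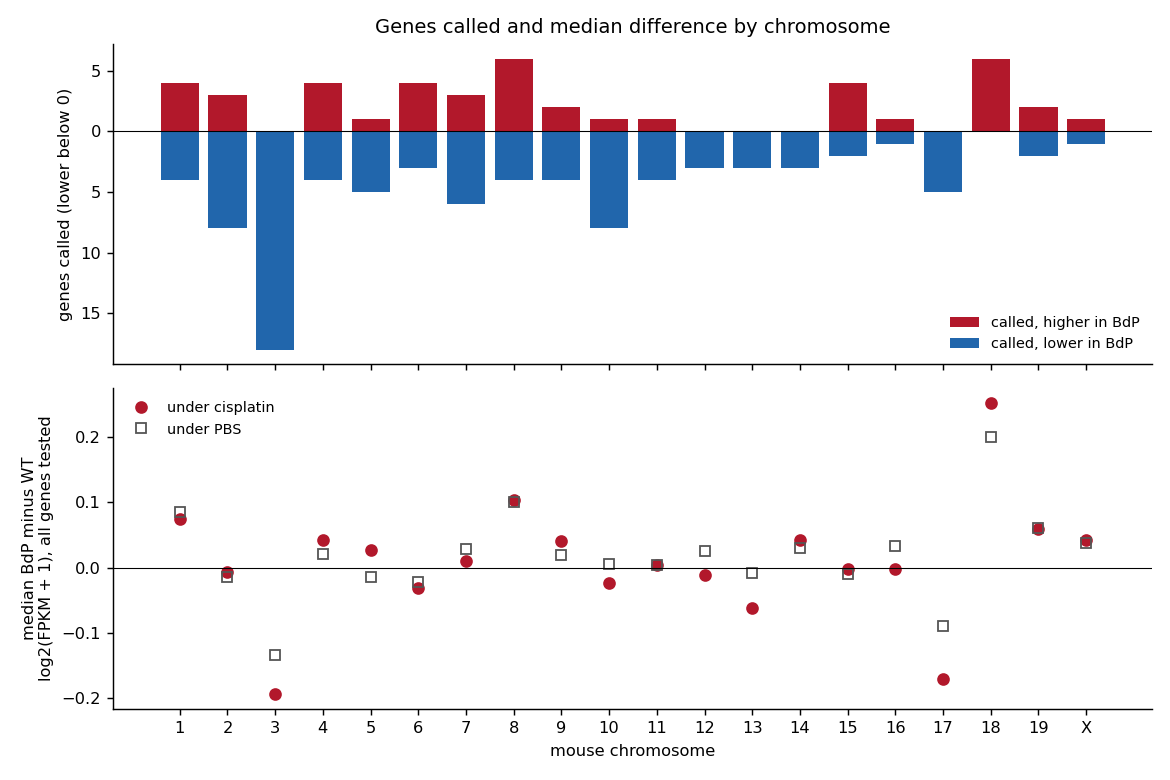
Genes called under cisplatin (top, number higher above 0 and lower below 0) and the median BdP minus WT difference of all genes tested (bottom, log2(FPKM + 1), circles for cisplatin and squares for PBS) on each mouse chromosome. Chromosome 3 has 18 genes lower and a median of -0.19, and chromosome 18 has 6 genes higher and a median of 0.25.

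**Figure D5:**
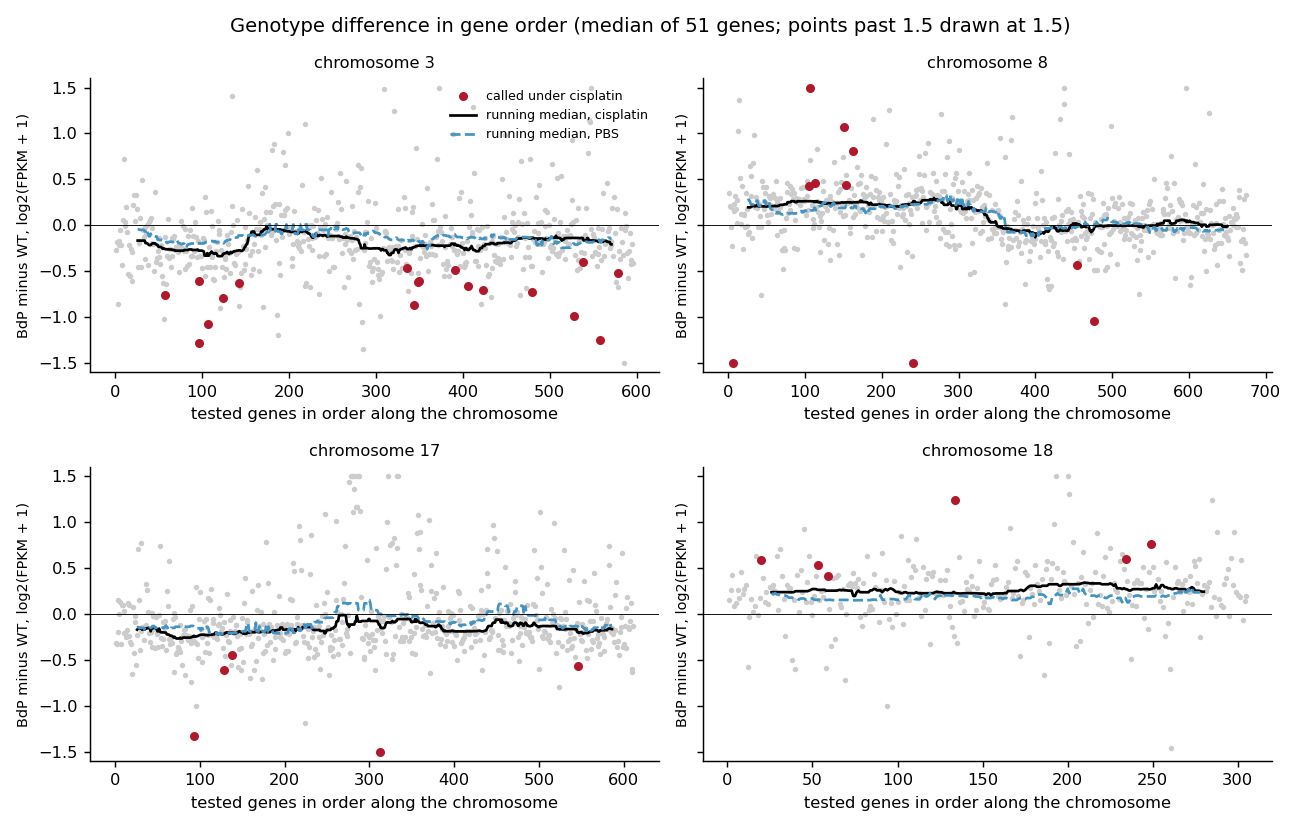
BdP minus WT difference in log2(FPKM + 1) of each gene tested on chromosomes 3, 8, 17 and 18 in gene order, with called genes in red and running medians of 51 genes under cisplatin (solid) and PBS (dashed). The running medians stay below 0 over most of chromosome 3 and above 0 over all of chromosome 18. On chromosome 8 they fall within the middle part of the order, as low as -0.13 under cisplatin.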

How the data were processed

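The authors deposited FPKM per gene for 16 tumour libraries. Per the submitters' processing notes, CASAVA, HISAT2 2.0.5, featureCounts 1.5.0-p3 and the mouse build GRCm38 (mm10) were used. Their settings, and the use of strand in counting, are not given in the sources used here. The steps of the deposited FPKM returned whole read counts for 100% of values within 0.1 read, which gave the depths and limma-voom as an alternative. In all 16 libraries the scaling between libraries matched a median-of-ratios size factor and not total reads, so levels do not depend directly on the share of mitochondrial or haemoglobin reads, while TPM, an alternative, does. Gene positions are those deposited.

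A gene was tested where 4 or more of the 16 libraries reached 1 FPKM, on log2(FPKM + 1) with limma 3.58.1 in R 4.3.3, fitting 4 group means over 16 libraries with a mean-variance trend. Adjusted p is Benjamini-Hochberg over all genes tested, called below 0.05. The test for a difference between treatments is the interaction contrast, and the genotype contrast under PBS served as a side-by-side value. Standard errors are moderated, and SD is over 4 libraries.

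Named genes are Pros1, Gas6, the TAM receptors and Ptpn1, in each direction the 15 called protein-coding genes that differed most and averaged 5 FPKM or more in either group (no pseudogene or provisional names), called list members with up to 3 others of smallest p, up to 5 called genes of each chromosome described, and the 5 genes of smallest p in the interaction. Some genes the rule names are not reported here. The lists, rules and members were chosen with earlier results of these data known. Overlapping genes are marked where the partner averaged at least 0.5 FPKM. Alternatives were other pseudocounts, filters, scalings, weights, library sets and a replicate block, and libraries left out in turn.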

Additional observations from a re-analysis of the deposited data

Results flagged for a closer look

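Genes were taken on the log2(FPKM + 1) scale, and mitochondrial and haemoglobin reads as plain percentages. In groups of 4, a library was singled out by its gap to the nearest other as a share of the group's range. That share had to exceed Dixon's 95% critical value. Of 112 groups over 54 genes 11 did so for a gene or a library measure (9.82%), where chance gives about 1 in 20. BdP 3 stood high for Mbd2 (34.2 FPKM, others 27.1 to 27.8) and Fscn1 (8.37 FPKM, others 3.44 to 3.96). It also had 6.46% haemoglobin reads, against 0.00199% to 0.152% in the other BdP libraries. BdP 1 stood high for Jph2 (2.02 FPKM, others 1.68 to 1.70). WT 2 was high for Tyro3 (3.00 FPKM, others 1.92 to 2.07) and Hgsnat (81.1 FPKM, others 44.2 to 48.8), and low for Exoc3l (1.15 FPKM, others 2.03 to 2.25). WT 1 was low for Mtss1 (3.48 FPKM, others 5.23 to 5.32). It was high for Ddah2 (17.6 FPKM, others 12 to 12.8) and Slc40a1 (3.27 FPKM, others 2.00 to 2.15). WT 4 was high for Yipf4 (28.5 FPKM, others 23.5 to 24.1).

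Gm16199 was higher in all BdP than in all WT libraries under cisplatin and lower in all BdP than in all WT libraries under PBS. The difference between the treatments was 2.15 ± 0.41 and did not pass the test (limma adjusted p = 0.395). The gene overlaps Wnk1.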

How the results depend on the processing

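The 132 genes called under cisplatin became 51 with a mean of at least 5 FPKM required, 251 with the 8 cisplatin libraries alone, 15 on TPM, 31 on TPM over nuclear genes without haemoglobin (4 higher, 27 lower), 943 with library weights, 229 in limma-voom and 55 without the 3 libraries rich in mitochondrial reads. TPM moved the median of all genes to 0.15. Leaving out 1 library gave 50 (without WT 1) to 153 (without WT 2) genes, with 50 to 108 of the 132 still called. Libraries of the 2 genotypes share replicate numbers that do not pair them (correlations of -0.113 to 0.282 between same-numbered libraries), and the fit with a replicate block called 80 genes under cisplatin and 81 under PBS. The 122 genes called under PBS became 56 without the filter, 80 with a mean of at least 5 FPKM, 6 on TPM over nuclear genes without haemoglobin, 50 without the mitochondria-rich libraries and 83 to 108 with 1 library left out. The interaction count of 0 became 1 without the trend, 1 in limma-voom and 0 to 1 with 1 library left out. With both TPM over nuclear genes and the 8 cisplatin libraries alone, an alternative chosen after seeing the data, 181 genes were called. The causes were not tested. Of 3835 values for named genes under the alternatives, 3436 kept direction and call, 282 lost the call, 93 gained it and 24, of 12 genes that were not called, changed sign. Without the mitochondria-rich libraries the differences became 0.97 for Hbb-bs, 1.04 for Hba-a1, 1.21 for Hbb-bt, 0.50 for Pf4, 0.43 for mt-Co2, 0.16 for mt-Nd4l and 0.16 for mt-Atp8. On TPM they became 0.0268 for Pf4 and 0.0213 for 4930579G24Rik, and with library weights 0.15 for Pf4 and 0.0597 for Mylpf. With 1 library left out, Gas6 ran from -0.11 to 0.20, Egfl7 ran from -0.000304 to 0.18, Hbb-bs ran from -3.90 to 0.0288, Hba-a1 ran from -3.83 to 0.0501, Hbb-bt ran from -3.73 to 0.26, Pf4 ran from -0.65 to 0.48, Mylpf ran from -0.26 to 0.0269 and Fabp4 ran from -0.0284 to 0.49. Of 901 list medians 59 changed sign, in 18 lists.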
